A study of Homo sapiens with 21 samples.

Results

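EM3, a clone of the inflammatory breast cancer line SUM149PT, was compared with the uncloned line it came from, called Parental. Both were set by their sample labels: 3 libraries of EM3 and 3 of Parental, 6 of the 21 libraries in the series. SUM149PT is an established human cell line, labelled ER-/PR-, that is, without estrogen and progesterone receptor. All lines were grown without treatment, and polyadenylated RNA was sequenced from one end. The other lines were the clones E, EM1, EM2, M1 and M2, with 3 libraries each; the series title places the study in the intermediate state of the epithelial-to-mesenchymal transition. EM3 is 1 clone, so a difference from Parental belongs to that clone and not to a class of clones, and how it was isolated was not given in the sources used here. The labels do not state whether replicate libraries are separate cultures; p-values here reflect library-to-library spread, which may be technical. In such bulk RNA, fewer cells that express a gene and less of its RNA per cell cannot be told apart.

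In the epithelial-to-mesenchymal transition, cells lose the junctions and keratins of an epithelial sheet and take up vimentin filaments, a loose matrix and motility. Transcription factors of the ZEB, SNAIL and TWIST families repress epithelial genes, and grainyhead-like (GRHL) and ETS-type factors such as EHF and ELF3 maintain them. Breast carcinoma cells can stop between these poles and carry genes of both programs. Cells also make cholesterol through a chain of enzymes from acetyl-CoA through mevalonate and squalene; SREBP2, encoded by SREBF2, switches these genes on together when membrane sterol runs low, and INSIG1 holds SREBP back in the endoplasmic reticulum.

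Totals of expected counts (the read numbers RSEM assigned to genes) were 40679062, 38056521 and 41985874 in EM3 replicates 1 to 3 and 36237466, 24602417 and 26966741 in Parental. EM3 replicate 3 stood apart from the other EM3 libraries. Its mean effective length, the usable transcript length averaged over genes, was 1878.4 bases against 2037.2 and 2032.5 in EM3 replicates 1 and 2, and 1918.5 to 1961.2 in Parental. On the first principal component of log2 CPM over Parental and the clones other than M1 and M2 (35.1% of the variance), replicate 3 lay at 7.06, EM3 replicates 1 and 2 at 38.1 and 39.5, and Parental at 3.74 to 9.01. The third libraries of other clones shifted likewise: EM1 replicate 3 lay at 5.04 against 44.1 and 33.9, and EM2 replicate 3 at -24.8 against 4.27 and 16.7. Replicate 3 of EM1, EM2, M1 and M2 also had the shortest mean effective length of its line (1864.1 to 1904.9 bases against 1961.6 to 2052.0), while Parental and E had no such gap. The part of this difference in the results was not tested beyond the fits without a library and with effective length as a covariate. Results below are therefore given also without each library where that ends a call. The cells carried the epithelial markers KRT8 and EPCAM in every library (561.56 to 2219.85 TPM and 130.01 to 443.94 TPM) and little receptor message (PGR at most 0.03 TPM, ESR1 0.37 to 2.26 TPM). TPM is a level scaled by gene length and by library total. Markers of cells that such cultures should lack were mostly near 0: of 20 blood and immune markers 15 were under 1 TPM in all 6 libraries, among them PTPRC (CD45), and CD3D was at 0. The summed level of the 20 was still 117.0 to 144.0 TPM in EM3 and 64.2 to 105.0 in Parental, without overlap, most of it CD68, a lysosomal protein gene (104.95, 104.11 and 115.57 TPM against 77.98, 54.04 and 78.92), and none of the 8 tested was called. Of 12 endothelial markers 10 were under 1 TPM in all 6 libraries, among them PECAM1. Summed fibroblast markers stood at 138.0 to 189.0 TPM in EM3 and 68.2 to 69.7 in Parental, carried mainly by DCN and FAP, while the fibroblast genes PDGFRA, THY1 and POSTN stayed at or under 0.08 TPM.

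EM3 and Parental differed at 689 of 18632 genes tested, 3.7%, with edgeR's quasi-likelihood test at a Benjamini-Hochberg adjusted p under 0.05. Of these, 339 (1.82% of genes tested) were higher in EM3 and 350 (1.88%) were lower. Among the called genes 629 were protein-coding, and the median size of a called change was 1.90 on the log2 scale. In 682 of them every library of one line lay above every library of the other. The same order held for 1879 genes tested that were higher in EM3 (10.1%) and for 1685 that were lower (9.04%), called or not. The even split depended on the scale: a test on log2(TPM + 1) called 478 genes higher and 147 lower, with the median of all genes shifted by 0.14 in log2, and 340 of the 689 genes passed there too in the same direction. The count was 367, 448 and 353 without EM3 replicates 1, 2 and 3, and 414 without Parental replicate 2.

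VIM (chromosome 10, 17228259 to 17237593 on GRCh38), the intermediate filament protein of mesenchymal cells, stood at 1490.0, 1228.65 and 1047.18 TPM in EM3 replicates 1 to 3 and at 161.99, 65.13 and 154.97 in Parental. The lines did not overlap, and VIM rose by 3.13 ± 0.31 on the log2 scale (SE, 3 libraries a line), an 8.75-fold difference (edgeR adjusted p = 1.44e-05). ZEB1 (chromosome 10, 31318495 to 31529814), a repressor of epithelial genes, measured 3.98, 2.53 and 3.64 TPM in EM3 and 0.26, 0.11 and 0.09 in Parental. This was 4.08 ± 0.47 in log2 (edgeR adjusted p = 7.86e-05), from a level near the bottom of the scale. COL6A3 (chromosome 2, 237324003 to 237414375), a chain of collagen VI, measured 25.5, 22.5 and 27.3 TPM in EM3 and 1.5, 1.16 and 1.69 in Parental, with a log2 difference of 4.02 ± 0.41 (edgeR adjusted p = 1.62e-05). The calls of VIM, ZEB1 and COL6A3 held in each of the 6 fits that left out 1 library.

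Among the mesenchymal transcription factors 2 of 19 tested were higher and 1 was lower, and among the mesenchymal structural and surface genes 7 of 27 were higher and 1 was lower, beside 1.82% and 1.88% of all genes tested. The list medians were 0.55 and 0.64 in log2 against 0.0013 over all genes; without EM3 replicate 3 they were 0.15 and 0.09. The factors were ZEB1 and SNAI2 (higher) and PRRX2 (lower). SNAI2, which encodes the repressor SLUG, stood at 52.4, 47.9 and 93.5 TPM in EM3 and at 18.4, 1.75 and 12.7 in Parental. The TWIST1 and ZEB2 genes were not called (log2 differences 0.94 ± 0.50 and 0.43 ± 0.43), nor were FN1, encoding fibronectin (0.13 ± 0.28), and CDH2, encoding N-cadherin (-0.26 ± 0.40). FBN1, which encodes the microfibril protein fibrillin-1, measured 5.76, 5.32 and 16.4 TPM in EM3 and 1.38, 2.55 and 1.39 in Parental (edgeR adjusted p = 0.00654). It missed the threshold without EM3 replicate 3 (edgeR adjusted p = 0.0521). The other 5 that were higher were the cadherin gene CDH11, the receptor kinase gene AXL, the proteoglycan gene DCN, the protease gene FAP and CTHRC1, a matrix protein gene, with log2 differences from 1.29 to 3.10. Fits without 1 library hold fewer samples, and several of these calls ended in them. Those of SNAI2, CDH11 and AXL ended without EM3 replicate 1 or 3 or Parental replicate 2 or 3 (edgeR adjusted p up to 0.155, 0.154 and 0.15). DCN was lost without EM3 replicate 1 or 3 or Parental replicate 1 or 3 and FAP without EM3 replicate 1 or 2 or Parental replicate 1 or 2 (edgeR adjusted p up to 0.106 and 0.123), and CTHRC1 and the proteoglycan gene LUM, which was lower, ended in each of the 6 fits (up to 0.19 and 0.16). PRRX2 ended without EM3 replicate 1 or 3 (edgeR adjusted p up to 0.0597). In place of 7, the structural genes called higher numbered 2, 5 and 2 when EM3 replicates 1, 2 and 3 were left out in turn. Leaving out Parental replicates 1, 2 and 3 gave 5, 3 and 3. FAP, CTHRC1 and DCN were not called without Parental replicate 1, so that 5 took in a list member outside the 7. DCN, FAP and LUM are also on the list of fibroblast markers, whose part in these counts was not tested.

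Of 29 collagen and crosslinking genes 2 were higher, COL6A3 and COL8A1, and none was lower, beside 1.82% and 1.88% of all genes tested. COL8A1, a short-chain collagen gene, measured 26.5, 18.3 and 16.9 TPM in EM3 and 10.3, 6.73 and 9.23 in Parental. Among 23 matrix protease genes and inhibitors TIMP2 was higher and MMP7 was lower. TIMP2, an inhibitor of matrix metalloproteinases, measured 29.7, 27.7 and 29.97 TPM in EM3 and 5.34, 7.60 and 9.52 in Parental, a log2 difference of 1.84 ± 0.24 (edgeR adjusted p = 0.000222) that held without each library. MMP7, the epithelial metalloproteinase matrilysin, measured 5.84, 2.04 and 11.9 TPM in EM3 and 38.8, 154.6 and 38.5 in Parental. Its call ended without EM3 replicate 1 or Parental replicate 2 (edgeR adjusted p up to 0.0655).

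Of 34 epithelial identity genes 4 were lower and none was higher, beside 1.88% and 1.82% of all genes tested. In the list 29 had a negative log2 difference and the list median was -0.52. On the log2(TPM + 1) scale the median of members tested there was -0.26, beside 0.14 over the genes tested on that scale. Those called were GRHL1, GRHL2, EHF and CGN. GRHL2, which holds epithelial genes open, measured 111.94, 111.93 and 52.9 TPM in EM3 and 156.24, 250.19 and 294.76 in Parental, a log2 difference of -1.14 ± 0.29 (edgeR adjusted p = 0.0339). EHF, an ETS factor of epithelia, measured 3.55, 9.79 and 1.01 TPM in EM3 and 14.9, 28.4 and 44.6 in Parental, and GRHL1 0.31, 0.44 and 0.47 against 1.31, 1.75 and 2.2. CGN, which encodes the tight junction protein cingulin, overlapped between the lines in TPM (1.53 to 3.79 against 1.23 to 7.15). Epithelial list genes called lower numbered 0, 2 and 1 when EM3 replicates 1, 2 and 3 were left out in turn. Leaving out Parental replicates 1, 2 and 3 gave 3, 2 and 0. GRHL1 and GRHL2 were not called without Parental replicate 1, so that 3 took in a list member outside the 4. CDH1, encoding E-cadherin, overlapped between the lines, at 14.1, 42.3 and 48.6 TPM in EM3 and 34.2, 20.2 and 63.0 in Parental. It was not called (log2 difference -0.51 ± 0.54, edgeR adjusted p = 0.747), and neither was EPCAM (-0.77 ± 0.33, edgeR adjusted p = 0.279).

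None of the 6 simple keratins tested passed, KRT8 (-0.62 ± 0.34 in log2) and KRT18 (-0.88 ± 0.32) included. Of 23 basal and squamous genes 2, KRT14 and KRT13, were lower and none was higher, beside 1.88% and 1.82% of all genes tested. The desmosome and luminal counts below are read against the same shares. KRT14, a keratin of basal cells, measured 1.63, 1.19 and 1.89 TPM in EM3 and 7.14, 5.09 and 9.07 in Parental, with no overlap. Its call ended in 5 of the 6 fits that left out 1 library, all but that without Parental replicate 2 (edgeR adjusted p up to 0.135). KRT13 had no count in EM3 and 21 in Parental, at least 9.62-fold lower when EM3 is set to a floor of 3 counts over the group. The basal keratin KRT5 (-1.0 ± 0.41) and the basal factor TP63 (-1.64 ± 0.81) were not called. Of 20 desmosome and hemidesmosome genes 3 were lower and none was higher. In the list 10 log2 differences were positive and the median was -0.073. The 3 were PKP1, PPL and EVPL, which encode plaque proteins of the desmosome and cornified envelope, lower by 1.15 to 1.23 in log2. PKP1 and PPL were lost in 4 and 5 of the 6 fits that left out 1 library (edgeR adjusted p up to 0.0987 and 0.197). The fits without EM3 replicate 1 and Parental replicates 2 and 3 were among these for both. EVPL held without each library but was not called in the tests on log2(TPM + 1) and log2(TPM + 0.1). AGR2, a disulfide isomerase gene of secretory epithelia and the called member of 11 luminal genes, measured 0.34, 0.43 and 0.38 TPM in EM3 and 2.17, 6.12 and 7.14 in Parental. Its log2 difference of -4.02 ± 0.66 (edgeR adjusted p = 0.00169) held without each library.

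**Figure D1:**
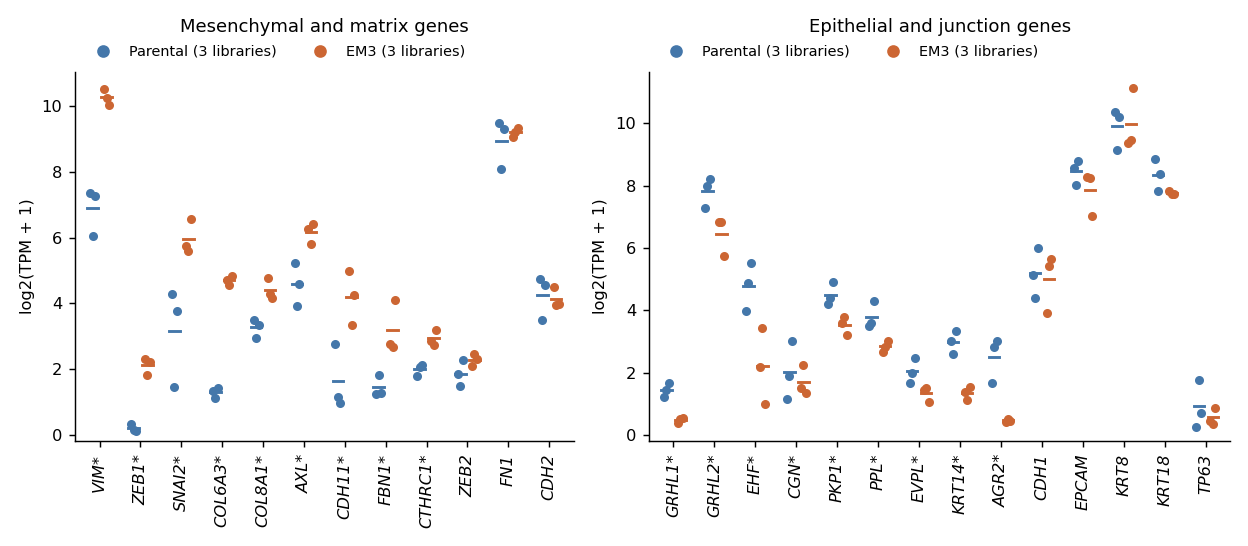
Levels of mesenchymal and matrix genes (left) and epithelial and junction genes (right) as log2(TPM + 1); points are single libraries, 3 of Parental and 3 of EM3, bars are line means, and an asterisk marks a gene called by edgeR. VIM, ZEB1 and COL6A3 separate the lines fully, whereas CDH1, KRT8 and FN1 overlap.

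Genes of cholesterol synthesis formed the list with the largest share called. Of 25 genes 12 were higher in EM3 and none was lower, beside 1.82% and 1.88% of all genes tested; all 25 log2 differences were positive, with a median of 1.66, and in 22 genes all EM3 libraries lay above all Parental libraries. The 25 were also all positive with DESeq2 size factors and on both TPM scales (medians 1.64 to 1.69). At the head of the chain, HMGCS1, which makes HMG-CoA, measured 115.13, 261.72 and 206.08 TPM in EM3 and 21.9, 11.3 and 35.8 in Parental, a log2 difference of 2.87 ± 0.52 (edgeR adjusted p = 0.00362). SQLE, the squalene epoxidase, measured 92.2, 162.09 and 98.2 TPM in EM3 and 28.7, 19.4 and 45.7 in Parental, and CYP51A1, the lanosterol demethylase, 104.32, 122.76 and 136.4 against 43.2, 29.4 and 50.4. These 3 calls held without each library. The thiolase ACAT2, MVD and IDI1 of the mevalonate steps, the squalene synthase FDFT1, the lanosterol synthase LSS and the later enzymes MSMO1, HSD17B7 and SC5D were also higher, by 1.66 to 2.34 in log2. INSIG1, the brake on SREBP, measured 89.9, 200.44 and 241.34 TPM in EM3 and 16.3, 12.8 and 61.96 in Parental. FDPS, the farnesyl diphosphate synthase gene (1.12 ± 0.43 in log2), and SREBF2 (1.13 ± 0.38) were among those not called. Cholesterol list genes called higher numbered 12, 5 and 5 when EM3 replicates 1, 2 and 3 were left out in turn. Leaving out Parental replicates 1, 2 and 3 gave 6, 3 and 12. ACAT2, FDFT1 and HSD17B7 were not called without Parental replicate 3, so that last count took in other list members. At least 24 of the 25 log2 differences were positive in each of these fits. Parental replicate 2 was the lowest and Parental replicate 3 the highest of the Parental libraries for HMGCS1, SQLE, CYP51A1 and INSIG1.

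Promoters of called genes are shown because the members moved together. RefSeq (GRCh38.p14) gave a window of 250 bases before to 50 after a start site for 18 of the 25 list genes and 9 of the 12 called, the first entry where a gene had several. They were searched on both strands for the CCAAT box (CCAAT or ATTGG), a core promoter element, for a sterol element core (CACNCCAC or GTGGNGTG) and for an E-box (CACCTG or CAGGTG). Capitals mark the first 2 motifs. The windows lie at chr5:43313363-43313662 (minus strand, HMGCS1), chr16:88663042-88663341 (minus strand, MVD), chr4:165327419-165327718 (plus strand, MSMO1) and chr7:155297628-155297927 (plus strand, INSIG1).
HMGCS1: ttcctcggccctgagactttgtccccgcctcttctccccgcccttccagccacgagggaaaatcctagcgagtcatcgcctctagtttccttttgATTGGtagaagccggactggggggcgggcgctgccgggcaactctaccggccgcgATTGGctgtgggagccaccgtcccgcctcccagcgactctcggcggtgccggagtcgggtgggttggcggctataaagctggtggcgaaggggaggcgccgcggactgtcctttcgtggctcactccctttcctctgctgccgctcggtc
MVD: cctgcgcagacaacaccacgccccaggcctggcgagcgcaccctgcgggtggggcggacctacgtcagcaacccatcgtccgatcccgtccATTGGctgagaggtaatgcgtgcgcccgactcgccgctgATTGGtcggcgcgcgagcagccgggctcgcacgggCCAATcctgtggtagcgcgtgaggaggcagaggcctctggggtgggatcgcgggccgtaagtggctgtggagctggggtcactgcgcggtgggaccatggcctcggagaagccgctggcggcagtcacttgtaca
MSMO1: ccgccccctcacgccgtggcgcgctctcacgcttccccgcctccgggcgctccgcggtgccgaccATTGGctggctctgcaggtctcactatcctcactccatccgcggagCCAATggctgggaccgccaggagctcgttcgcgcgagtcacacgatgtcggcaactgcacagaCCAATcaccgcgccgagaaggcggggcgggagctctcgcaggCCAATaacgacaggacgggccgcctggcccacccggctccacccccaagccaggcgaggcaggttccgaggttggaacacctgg
INSIG1: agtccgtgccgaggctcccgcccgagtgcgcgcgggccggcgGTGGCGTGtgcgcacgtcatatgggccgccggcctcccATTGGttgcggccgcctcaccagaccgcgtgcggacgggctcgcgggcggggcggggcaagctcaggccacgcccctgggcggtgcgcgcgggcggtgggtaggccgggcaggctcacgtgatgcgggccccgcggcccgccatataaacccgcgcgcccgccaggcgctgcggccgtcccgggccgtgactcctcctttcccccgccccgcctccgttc
MSMO1 held 4 CCAAT matches, MVD 3, HMGCS1 2 and INSIG1 1, the last with a sterol element match starting 208 bases before the start site. A CCAAT box stood in 15 of the 18 list promoters (83.3%) and in 7 of the 9 called (77.8%), against 36.5% of the 12439 promoters of genes tested. The sterol element core stood in 3 of 18 (16.7%) against 5.72%, and the E-box in 6 of 18 (33.3%) against 18.7%. In the epithelial list the CCAAT box stood in 7 of 20 promoters (35.0%), the sterol core in 3 (15.0%) and the E-box in 9 (45.0%). Of the 4 epithelial genes called lower 3 had a window, and the E-box stood in 0 of these 3, the CCAAT box in 2 and the sterol core in 1. These are matches of letters in a window; binding was not measured.

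**Figure D2:**
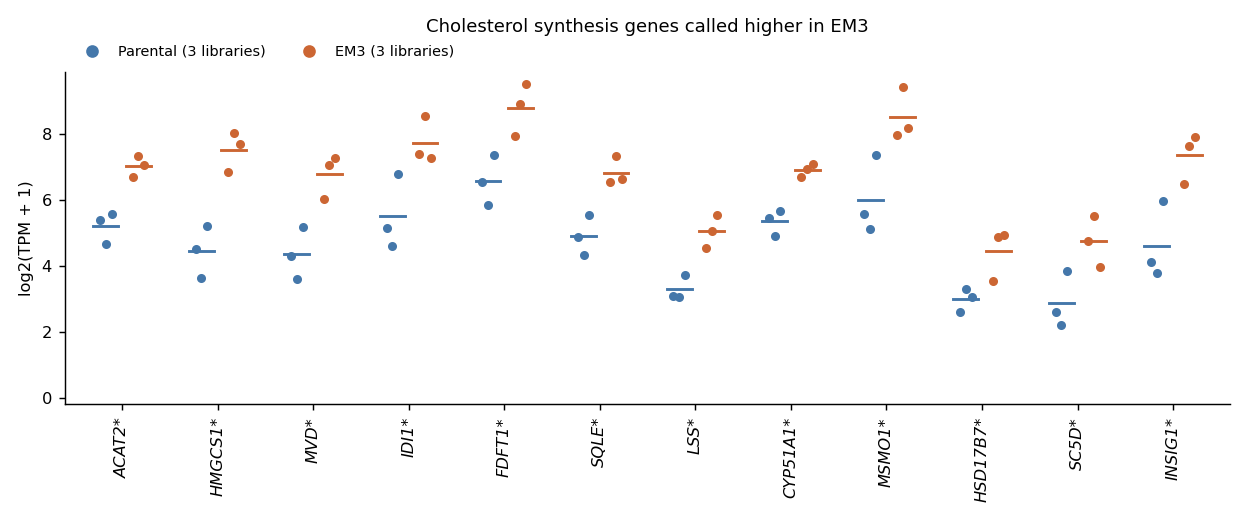
Levels of the 12 cholesterol synthesis genes called higher in EM3 by edgeR (asterisks) as log2(TPM + 1), with points for the 3 Parental and 3 EM3 libraries and bars for line means. The EM3 mean lies above the Parental mean in each of the 12 genes.

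Of 19 fatty acid genes 4 were higher and none was lower, beside 1.82% and 1.88% of all genes tested, with a list median of 0.77. SCD, which puts the double bond into saturated fatty acids, measured 537.89, 651.24 and 1206.31 TPM in EM3 and 122.65, 144.87 and 279.69 in Parental. Its call ended without EM3 replicate 2 or 3 or Parental replicate 1, 2 or 3 (edgeR adjusted p up to 0.24), as did that of the desaturase gene FADS1 (up to 0.172). ELOVL5, an elongase of polyunsaturated fatty acids, measured 103.26, 114.25 and 111.27 TPM in EM3 and 38.4, 54.8 and 59.1 in Parental, and ACSL4, which activates arachidonic acid, 35.6, 40.8 and 91.2 against 26.6, 27.0 and 28.97. Their calls held without each library, but ACSL4 was not called on either TPM scale (limma adjusted p = 0.184 with a pseudocount of 1). The synthase gene FASN was not called (1.85 ± 0.57 in log2, edgeR adjusted p = 0.0837).

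The largest differences toward Parental were genes that EM3 had all but lost. CNNM1 had no count in EM3 and 92 in Parental, at least 42.2-fold lower against a floor of 3 counts over the group. For the others, the ratio of counts scaled by library size is given with a 95% interval that covers counting error only. PODXL2 (chromosome 3, 127629181 to 127672809), a sialomucin gene, measured 0.01, 0.01 and 0 TPM in EM3 and 1.94, 2.73 and 2.67 in Parental, 2 counts against 492, a ratio of 338.0 (93.1 to 2800.0). G0S2, an inhibitor of the lipase ATGL, had 3 counts against 448 and ranged from 0.65 to 14.8 TPM within Parental. CDX2 (chromosome 13, 27962137 to 27971139), a homeobox factor of the gut, measured 0.01, 0.01 and 0 TPM in EM3 and 0.43, 0.91 and 0.37 in Parental, a ratio of 91.4 (24.8 to 763.0). SLC17A9, the vesicular nucleotide transporter, measured 0, 0 and 0.01 TPM in EM3 and 0.85, 1.11 and 0.80 in Parental, a ratio of 139.0 (37.9 to 1150.0). CRMP1, GLB1L2, SYK and TMPRSS13 had 1 count each in EM3 and 101 to 166 in Parental. SYK encodes the spleen tyrosine kinase and TMPRSS13 a membrane serine protease. CMBL, an esterase gene, and INHBB, the activin beta-B chain, stood at 0.01 to 0.02 TPM in EM3 against 0.74 to 1.89 and 0.05 to 1.42. All these genes were under 3 TPM in Parental apart from G0S2, and their calls held without each library; PRR15L, also among the 12 largest, ended without EM3 replicate 1 or 3 or Parental replicate 3 (edgeR adjusted p up to 0.0589).

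The largest differences toward EM3 were genes nearly silent in Parental. EYA4 (chromosome 6, 133240598 to 133532120), a phosphatase and transcriptional coactivator gene, measured 2.02, 3.74 and 4.24 TPM in EM3 and 0.03, 0.07 and 0 in Parental, a log2 difference of 6.60 ± 0.65 (edgeR adjusted p = 1.36e-05). PRUNE2 measured 4.10, 4.63 and 22.4 TPM against 0.09, 0.26 and 0.29, with EM3 replicate 3 far above the others. GPNMB, a membrane glycoprotein gene of melanocytes and macrophages, measured 7.24, 5.83 and 13.5 TPM against 0.26, 1.3 and 0.47 (log2 difference 4.62 ± 0.57, edgeR adjusted p = 0.000155). LIX1L was even within EM3, at 6.16, 6.27 and 5.33 TPM, against 0.12, 0.22 and 0.36. OLFML3, a secreted matrix protein gene, and APCDD1L stood at 5.60 to 11.5 and 7.22 to 16.6 TPM in EM3 and at or under 0.67 in Parental. SORBS2, an adaptor of actin structures, and PHACTR1, a regulator of actin and protein phosphatase 1, differed by 4.34 ± 0.75 and 5.53 ± 0.78 in log2. The calls of CYP1A1, a target of the aryl hydrocarbon receptor, and of PDE2A, a phosphodiesterase gene, both with a log2 difference above 4, ended in several fits that left out 1 library. CYP1A1 ended in 5 of the 6 fits, all but that without EM3 replicate 1, and PDE2A without EM3 replicate 2 or 3 or Parental replicate 2 or 3 (edgeR adjusted p up to 0.163 and 0.122).

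Of 38 inflammation genes 4 were higher and none was lower, beside 1.82% and 1.88% of all genes tested, with a median of 0.93 that was 0.41 without EM3 replicate 3. IL33, an alarmin, measured 78.8, 181.96 and 67.2 TPM in EM3 and 12.3, 5.76 and 24.9 in Parental (2.83 ± 0.45 in log2, edgeR adjusted p = 0.00143). ICAM1, an adhesion molecule for leukocytes, measured 12.7, 8.49 and 20.01 TPM against 3.07, 1.22 and 2.12. IL33 and ICAM1 held without each library. PTGS2, the inducible cyclooxygenase, measured 45.8, 26.9 and 166.15 TPM against 8.25 to 9.11; its call and that of the chemokine gene CCL5 ended in all of the 6 fits but the one without EM3 replicate 2 (edgeR adjusted p up to 0.183 and 0.0935). CXCL8 and IL6 were not called and overlapped (11.6 to 358.32 and 0.47 to 12.7 TPM over the 6 libraries). None of 24 immediate early genes was called, with a median of 0.87 that was 0.04 without EM3 replicate 3.

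Of 37 interferon-response genes 2 were lower and none was higher, beside 1.88% and 1.82% of all genes tested. The counts in the lists that follow are read against the same shares. The interferon list did not lean lower: 22 of its 37 log2 differences were positive and the median was 0.145. XAF1, an antagonist of an apoptosis inhibitor, had no count in EM3 and 38 in Parental, at least 17.4-fold lower against the same floor, and EPSTI1 stood at 0.37 to 0.66 TPM against 1.37 to 1.62. EPSTI1 ended without EM3 replicate 1 or 3 or Parental replicate 1 or 3 (edgeR adjusted p up to 0.0792). No gene of 17 for antigen presentation, 24 of stress and protein folding, 12 encoded by mitochondria or 6 cancer-testis genes passed. Of 40 proliferation genes 1 (2.5%, under the 3.7% of all genes called either way), the mitotic kinase gene AURKB, was lower (-0.91 ± 0.24). Its call ended in each of the 6 fits that left out 1 library (edgeR adjusted p from 0.0665 to 0.174). Only 5 of the 40 log2 differences were positive, with a list median of -0.239, and MKI67 measured -0.06 ± 0.33. In the hypoxia and glycolysis list 2 of 28 were higher and 1 lower. ADM, the vasodilator peptide adrenomedullin, measured 57.0, 30 and 53.2 TPM in EM3 and 8.62, 3.05 and 3.74 in Parental (2.98 ± 0.52, edgeR adjusted p = 0.00245), and held without each library. ALDOC, an aldolase, was higher and TPI1, triosephosphate isomerase, lower; ALDOC ended without EM3 replicate 3 or Parental replicate 1, 2 or 3 and TPI1 without EM3 replicate 3 or Parental replicate 1 (edgeR adjusted p up to 0.235 and 0.0609).

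Of 38 growth factor and receptor genes 3 were higher and 2 lower, beside 1.82% and 1.88% of all genes tested. FGFR1, a fibroblast growth factor receptor, had a log2 difference of 1.90 ± 0.27 in counts (edgeR adjusted p = 0.000439), but in TPM it measured 29.1, 16.4 and 2.79 in EM3 and 3.69, 1.96 and 6.83 in Parental, overlapped, and was not called on either TPM scale. The carrier gene FGFBP1 measured 64.8, 54.0 and 345.28 TPM against 18.3, 3.87 and 17.5, and ended without EM3 replicate 3 or Parental replicate 1, 2 or 3 (edgeR adjusted p up to 0.367). IGFBP2, an insulin-like growth factor binding protein, measured 0.32, 0.27 and 0.13 TPM in EM3 and 2.36, 3.05 and 3.82 in Parental and held without each library. IGFBP7 had 3 counts against 31 and held only without Parental replicate 2 (edgeR adjusted p up to 0.111 otherwise). ERBB2 was not called (-0.23 ± 0.22). Of 34 TGF-beta and BMP genes the type I receptor gene TGFBR1 was higher (41.3, 36.8 and 41.6 TPM against 12.3, 12.2 and 19.97) and INHBB lower; TGFBR1 missed the threshold in each of the 6 fits that left out 1 library (edgeR adjusted p from 0.0504 to 0.153). Of 36 WNT genes 2 were lower, FZD10 with no count in EM3 (at least 6.87-fold) and LGR6 with 1 count against 24. FZD10 ended without EM3 replicate 1 or 3 and LGR6 without these or Parental replicate 2 or 3 (edgeR adjusted p up to 0.054 and 0.112).

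Of 6 core-binding factor genes RUNX3 was higher (17.95, 40.9 and 37.6 TPM against 10.4, 6.83 and 13.8) and its call ended in each of the 6 fits that left out 1 library (edgeR adjusted p from 0.0962 to 0.203). FDXR, a mitochondrial reductase gene, was lower, at 2.41, 3 and 2.73 TPM in EM3 and 4.18, 5.78 and 9.69 in Parental. Its call ended without EM3 replicate 1 or 2 or Parental replicate 3 (edgeR adjusted p up to 0.0651). HDAC9, the called member of 22 chromatin enzyme genes, measured 6.18, 4.93 and 6.27 TPM in EM3 and 0.76, 0.71 and 1.17 in Parental, and ACO1, the cytosolic aconitase and the called member of 18 genes in and around 9p21, 13.3, 13.01 and 16.3 against 3.71, 5.07 and 4.38; both were higher and held without each library. Of 19 stem cell surface genes ENG was higher and ended without EM3 replicate 1 or 3 or Parental replicate 2 or 3 (edgeR adjusted p up to 0.184), and of 20 Hippo pathway targets AXL was the called one.

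**Figure D3:**
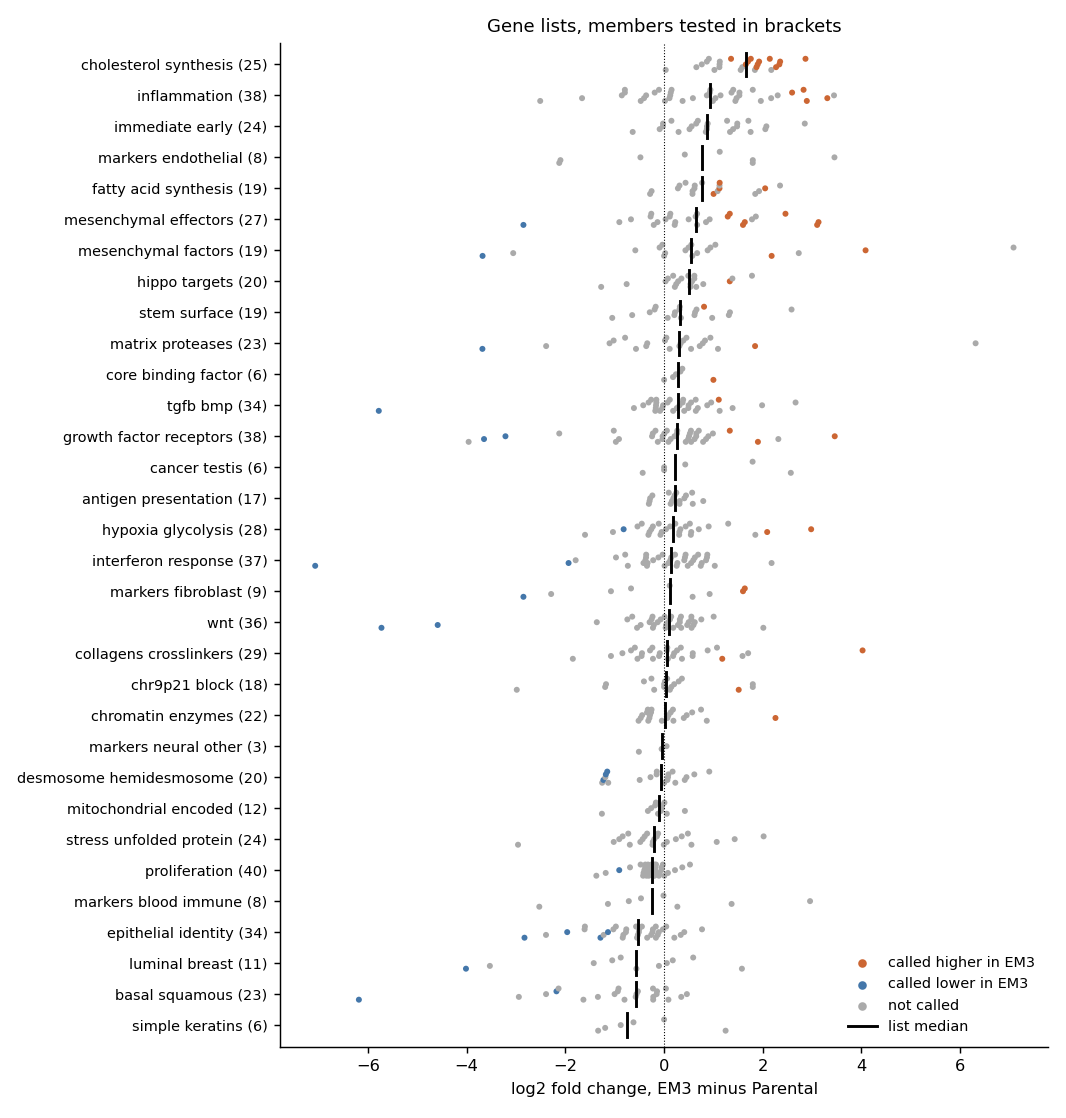
Log2 fold change, EM3 minus Parental, of every tested member of the gene lists described here, one row a list ordered by its median (black bar); orange points were called higher, blue called lower and grey not called by edgeR. Cholesterol synthesis has the highest median at 1.66 and simple keratins the lowest at -0.75.

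The genes lower in EM3 were not spread evenly over the genome. On chromosome 17, 81 of 1101 genes tested were lower (7.36%), and on chromosome 20 29 of 468 (6.20%), while on no other chromosome was the share above 2.05%. To place them, genes with a summed mean CPM above 2 (13502 genes, GENCODE 29 positions on GRCh38) were put in order, medians were taken over windows of 21 neighbours, and windows with a median beyond 0.6 in log2 that lay within 10 places of each other were joined. These settings, and the block genes named here, were chosen after seeing the data. They gave 5 low and 2 high blocks. Since the blocks were chosen on this contrast, the counts and medians within them are a description and support nothing. Block bounds include flanking genes of the outer windows that are not low or high themselves.

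The deepest block lay on chromosome 17 from 68259182 to 76565348, near the end of the long arm. Its first genes, from ARSG to SOX9, were not low (-0.26 to 2.71 in log2), and the low stretch began at LINC00511. Of the 68 genes in the bounds 35 were lower and none was higher, 58 had a negative difference, and the median was -0.95. Over these genes the median log2 difference from the Parental mean was -0.97, -0.95 and -0.67 in EM3 replicates 1 to 3 and lay between -0.07 and 0.01 in the Parental libraries themselves. EM1 stood at -0.23, -0.19 and 0.10, EM2 at 0.04, -0.05 and 0.19 and E at 0.19 to 0.24, so EM3 was the lowest of these lines. SUMO2, a ubiquitin-like modifier, measured 414.6, 417.59 and 352.2 TPM in EM3 and 733.96, 676.55 and 674.26 in Parental, a log2 difference of -0.93 ± 0.18 (edgeR adjusted p = 0.00598). GRB2, the adaptor of receptor kinases, measured 25.8, 24.6 and 30.2 TPM against 53.95, 41.5 and 63.1 (-1.05 ± 0.17, edgeR adjusted p = 0.00126). LLGL2, a polarity gene of epithelia, differed by -1.65 ± 0.31, CDC42EP4, an effector of CDC42, by -2.50 ± 0.32, and HID1, of dense core vesicles, by -3.44 ± 0.60. The ribosomal genes RPL38, MRPS7 and MRPL58 were also lower (-1.51, -1.22 and -1.48). FDXR and EVPL, named above, lie in this block. Called genes numbered 18, 20 and 26 without EM3 replicates 1, 2 and 3, 25, 27 and 24 without Parental replicates 1, 2 and 3, and 22 on the log2(TPM + 1) scale, on which the block median was -0.70.

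A second low block had bounds on chromosome 20 from 472498 to 18484643, with 23 of 75 genes lower, none higher, and a median of -0.62. Its first genes, from CSNK2A1 to STK35, lay between -0.19 and 1.05, and the low stretch began at SNRPB (-1.25). EM3 replicates stood at -0.57, -0.59 and -0.66 and EM1 at -0.64, -0.63 and -0.75, while EM2 (-0.05 to 0.15) and E (0.02 to 0.05) lay at the Parental level. Among its genes VPS16, of the vesicle tethering complexes, differed by -2.77, the snoRNP protein gene NOP56 by -1.37 and the isocitrate dehydrogenase subunit gene IDH3B by -1.36. Called genes in it numbered 14 without EM3 replicate 3 or Parental replicate 1, and 16 to 19 without each of the others. Next to each other on the short arm of chromosome 17 lay blocks from 4669774 to 7040121 (9 of 39 genes lower) and from 7225341 to 14208677 (17 of 71 lower and 1 higher). Their medians were -0.59 and -0.62. Their bounds follow from the cutoff of 0.6. Nearer the chromosome end, from the first full window up to these blocks, running medians lay between -0.579 and -0.355. GLOD4, MRM3 and YWHAE were among the genes called lower in that stretch. Genes called lower in the second of them numbered 6, 3 and 5 without EM3 replicates 1, 2 and 3. They numbered 7, 6 and 12 without Parental replicates 1, 2 and 3. In the first of them the counts were 5, 6 and 6 and then 6, 7 and 8. EM1 was as low there (-0.76 to -0.41), M2 lower still (-1.58 to -1.14), and AURKB, named above, lies in the second of them. On chromosome 12 from 912077 to 6663148, 5 of 40 genes were lower (0, 0 and 1 without EM3 replicates 1, 2 and 3, and 0, 2 and 5 without Parental replicates 1, 2 and 3), and all 6 clones had medians under Parental (-1.17 to -0.40). The high blocks held 23 genes on chromosome 18 (2655738 to 9615240, 4 higher, among them the laminin chain gene LAMA1) and 21 on chromosome 8 (6618475 to 13604610, 5 higher, among them FDFT1 and SOX7). Library medians on chromosome 18 were 0.33 to 0.43 in EM3, 0.48 to 0.59 in EM1 and 0.27 to 0.43 in M1. EM2, E and M2 lay at -0.43 to 0.15. The block median of 0.567 was 0.335 without EM3 replicate 3. On chromosome 8 EM3 stood at 0.52 to 0.75, EM1 at 0.54 to 0.73 and M1 at 0.41 to 0.82. EM2, E and M2 lay at -0.01 to 0.51. Genes called higher in the chromosome 8 block numbered 2 without EM3 replicate 3 and 1 without Parental replicate 2 or 3. FDFT1 was called in 1 of the 6 fits that left out 1 library, that without EM3 replicate 1. With 11 or 41 genes a window the lowest window also lay on chromosome 17, at medians of -1.35 and -1.09 (-1.12 with 21). Copy number was not measured in these data.

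**Figure D4:**
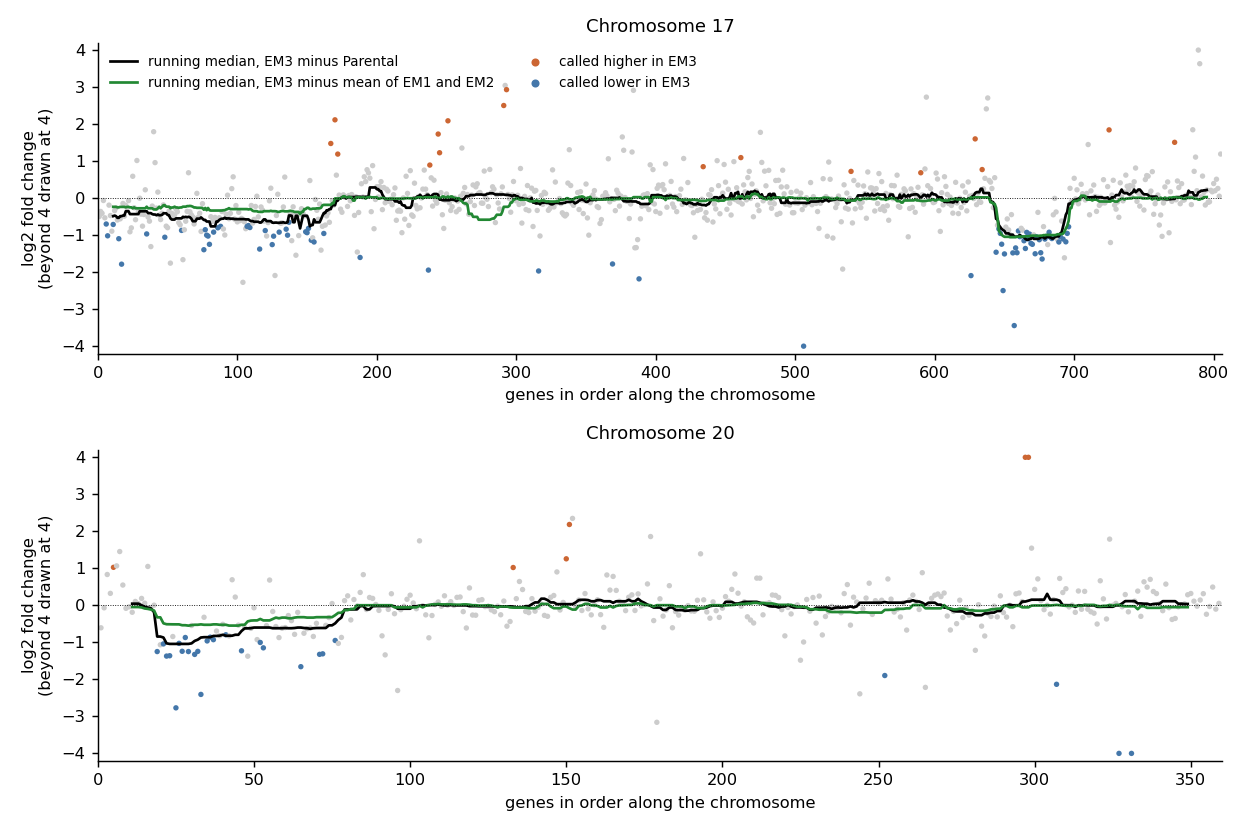
Log2 fold change, EM3 minus Parental, of placed genes in order along chromosomes 17 and 20 (points; orange called higher, blue called lower, grey not called), with running medians of 21 genes for EM3 minus Parental (black) and EM3 minus the mean of EM1 and EM2 (green). On chromosome 17 both lines drop together in a block of 68 genes near the end; on chromosome 20 the black line drops further at the start.

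EM3 was next compared with the other clones named EM, which asks how much of its distance from Parental sets it apart from EM1 and EM2. The contrast of EM3 with the mean of EM1 and EM2 used no Parental library but shared the EM3 libraries. It called 248 genes (1.33% of those tested), 157 higher and 91 lower, and 135, 154 and 137 genes without EM3 replicates 1, 2 and 3. Of the 689 genes called against Parental 138 were also called here (20%), which is 55.6% of the 248. In the long-arm block of chromosome 17, 30 of the 68 genes were lower here too, with a median of -0.99, and in the chromosome 20 block 3 of 75 were lower and 1 higher (median -0.36). In the cholesterol list 1 gene, SQLE, was called, with a list median of 0.77. The list's mean log2(TPM + 1) was 6.51 ± 0.40 in EM3 (SD, n = 3), 6.63 ± 0.60 in EM1, 4.81 ± 0.28 in EM2 and 4.85 ± 0.58 in Parental, so EM1 lay near EM3 and EM2 near Parental.

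Levels over the 7 lines showed what this contrast rested on. EYA4 averaged 0.06 TPM in EM1, 0.37 in EM2 and 0.45 in E and 8.49 in M1, so that EM3 lay between M1 and the rest. ARMCX3 (chromosome X, 101622797 to 101627843), which encodes a protein of the outer mitochondrial membrane, measured 8.16, 11.6 and 20.6 TPM in EM3, 5.60 to 13.7 in EM1 and 0 to 0.01 in EM2, and 2.19, 3.11 and 2.87 in Parental. The carboxypeptidase gene CPQ was likewise absent in EM2 (0 TPM in each library) and present in EM1 (0.87 to 1.16) and EM3 (1.47 to 1.81). The contrasts of ARMCX3 and CPQ, 5.63 and 4.95 in log2, thus average a clone that had these genes and one with almost none. ARMCX6 and BEX3 showed the same split (means of 5.12 and 33.6 TPM in EM1 and 0 and 0.03 in EM2) and were not called against Parental (edgeR adjusted p = 0.0522 and 0.153). SLC17A9 and CKB, the brain-type creatine kinase gene, lay lower in every EM3 library than in every EM1 and EM2 library: SLC17A9 averaged 0.35 and 2.07 TPM in EM1 and EM2, and CKB measured 0.22, 0.29 and 0.48 TPM in EM3 against 2.84 to 6.36 in EM1 and 2.25 to 4.99 in EM2. VIM was not called (0.56 in log2, edgeR adjusted p = 0.501), with 629.43 to 817.42 TPM in EM1 and 479.51 to 1320.6 in EM2. ZEB1 (1.83) and COL6A3 (1.35) were called, but COL6A3 averaged 1.76 TPM in EM1 and 49.3 in EM2, on either side of EM3. PSTPIP2, a cytoskeletal adaptor gene, was lower than the mean of EM1 and EM2 (-3.20), as was LCK, a lymphocyte kinase gene (-2.98), which was not called against Parental.

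**Figure D5:**
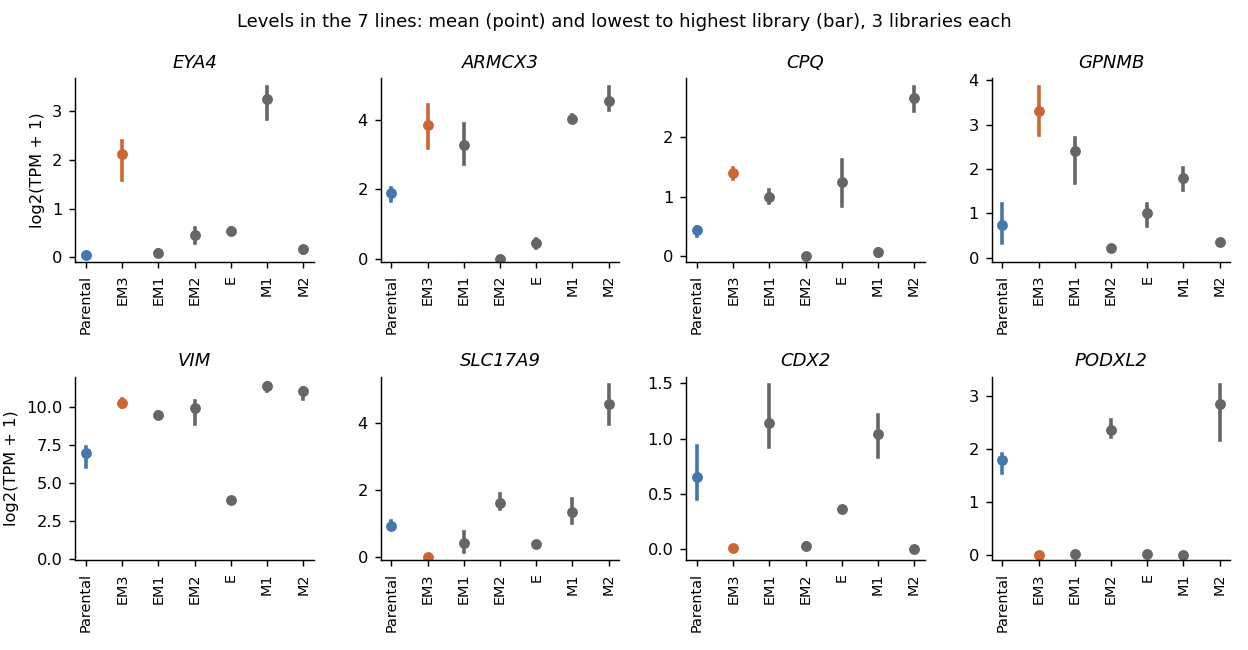
Levels of 8 genes in the 7 lines as log2(TPM + 1), with the mean of 3 libraries (point) and the lowest to highest library (bar). EM3 is high for EYA4, GPNMB and VIM beside Parental and at 0 to 0.01 TPM for SLC17A9, CDX2 and PODXL2, while ARMCX3 and CPQ are near 0 in EM2.

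Set among all clones, Parental lay inside their range for most genes. For 482 of the 689 called genes (70.0%) its mean TPM was within the range of the 6 clone means, against 14893 of all genes tested (79.9%). EM3 is among these 6 clones and the genes were called on its difference from Parental, so these shares are not like for like. Of the called genes, the EM1 mean lay on the EM3 side of Parental for 651, the EM2 mean for 518, M1 for 526, M2 for 442 and E for 383. The same counts over all genes tested are not given here. All these counts share the Parental libraries, on which the genes were called, so they do not measure likeness to EM3. They are given as a description.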

How the data were processed

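RNA of 21 SUM149PT libraries was sequenced. Per the submitters' processing notes the tools were bcl2fastq 2.20.0.422, cutadapt 2.4, STAR 2.7.2b and RSEM 1.3.2, with the build hg38; annotation release and strand setting were not given in the sources used here, so antisense and overlapping genes may share reads. The authors deposited, per gene and library, RSEM expected counts, TPM values and effective lengths, per the file headers (60617 genes). Between 7.44% and 8.61% of expected counts were not whole and were rounded.

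Counts were tested with edgeR 4.0.16 (quasi-likelihood, robust, TMM, filterByExpr) in 1 fit of all 21 libraries, each line having its own mean (14 residual degrees of freedom), with Benjamini-Hochberg adjustment over 18632 genes. SE is the log2 difference divided by the square root of F. The test was checked on simulated data. Positions and gene types came from GENCODE 29 (58542 genes matched) and promoters from RefSeq. Alternatives used limma 3.58.1 and DESeq2 1.42.0, and summaries R 4.3.3 and Python 3.11.15. Intervals and floors cover counting error only.

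The members and gene lists were chosen with earlier results of these data known. Named genes are the 12 largest log2 differences in each direction, the 5 largest in each direction of the contrast with EM1 and EM2, and members of the lists; each of the largest had to be called, protein-coding, without overlap in CPM and at a mean CPM of at least 1 in the higher line. The windows along chromosomes, the motif searches and the fits without EM1 or EM2 libraries were chosen after seeing the data. The lists cover 684 genes tested. Values of some list members are not reported here.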

Additional observations from a re-analysis of the deposited data

Results flagged for a closer look

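For 24 named genes called against Parental, EM3 differed from Parental by another amount than the mean of EM1 and EM2 did, tested with edgeR as EM3 minus that mean, which cancels Parental. The differences, in log2, were below 0 for SLC17A9 (-6.40), TMPRSS13 (-6.25), GLB1L2 (-5.42), PODXL2 (-4.53), CDX2 (-4.02), CKB (-3.74), PSTPIP2 (-3.20), FDXR (-1.30) and EVPL (-1.07). They were above 0 for ARMCX3 (5.63), CPQ (4.95), EYA4 (4.83), CDH11 (4.50), GPNMB (3.57), PRUNE2 (3.11), ALDOC (2.91), ZEB1 (1.83), ADM (1.79), DCN (1.70), COL6A3 (1.35), LIX1L (1.19), SQLE (1.08), COL8A1 (0.88) and TIMP2 (0.86). These values share the EM3 libraries with the comparison against Parental.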

How the results depend on the processing

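Of 90 called genes that the text may name, 38 were called under every setting that tested them, 52 were lost in at least 1 and 0 changed direction; 46 were lost in at least 1 fit that left out a library. Leaving out 1 library gave 353 to 507 genes called, 162 to 243 higher and 162 to 281 lower, and 135 to 255 in the contrast with EM1 and EM2; fewer samples entered each fit. Without a low-count filter 1404 were called, 882 of them higher, and 605 in that contrast, over 39460 genes tested. The DESeq2 Wald test called 1208 (588 higher, 620 lower) and 482. Tests on TPM, over 13889 genes, called 147 lower with a pseudocount of 1 and 143 with 0.1, and 154 and 151 in the contrast. With the libraries of the lines compared alone, 321 were called (165 higher, 156 lower) and 134. With mean effective length as a covariate 2452 were called (1270 higher, 1182 lower) and 593; for these last settings the cause was not tested.

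With the replicate number as a block 967 genes were called, 487 higher and 480 lower, and 333 in the contrast with EM1 and EM2. Deviations of same-numbered EM3 and Parental libraries correlated at 0.243, 0.082 and -0.16, and not every library correlated best with its own number, so for this comparison the numbers name libraries. For EM3 and EM1 the correlations were 0.281, 0.041 and 0.791 and for EM3 and EM2 0.399, 0.587 and 0.673, so same-numbered libraries of these clones deviated together, weakly in 1 pair; no label says what the number marks. Genes near 0 TPM rest on few counts, which limits their ratios.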
